A study of Homo sapiens with 4 samples.

Results

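Chromosome 16 held 2888 of the 66131 H3K9ac regions called in 2 chromatin immunoprecipitation sequencing (ChIP-seq) libraries of T98G cells. Its members are all regions listed on that chromosome, 1332 in the control library and 1556 in the RBBP4 shRNA library, divided at the centromere into a short and a long arm. T98G is an established glioblastoma cell line. The cells, at passage 4, carried a lentiviral control shRNA (shNT) or a lentiviral shRNA against RBBP4 (shRBBP4), and H3K9ac was precipitated with the same rabbit monoclonal antibody in both. Each group is 1 library of 1 line, so no difference has a replicate check. The inputs and the RBBP4 level in these cells were not analysed here, and the sequencing depth of the libraries is unknown. The chromosome was chosen by its region counts, as one rich in genes with a low ratio of shRBBP4 to shNT regions. Its region numbers, and every measure of shRBBP4 against shNT, are therefore a description with no test, and the 95% intervals cover counting error only.

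H3K9ac is acetylation of histone H3 at lysine 9, a mark that lies mainly on the nucleosomes flanking the start sites of active genes. It is written by acetyltransferases such as GCN5 and PCAF and removed by histone deacetylases. RBBP4 is a histone-binding subunit of the Sin3 and NuRD deacetylase complexes, of the polycomb complex PRC2 and of the chromatin assembly factor CAF-1. Chromosome 16 is rich in genes for its length. Its short arm carries the alpha-globin genes, TSC2, the acetyltransferase gene CREBBP and PALB2, and its long arm carries RBL2, the metallothionein genes, CTCF, CDH1 and FANCA. The reference gene table, on assembly GRCh38.p14, lists 854 protein-coding genes on it, the eleventh most of 23 chromosomes. The region lists are on hg19, so no region was assigned to a gene and regions are named by hg19 position.

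The excess of regions in shRBBP4 was smaller on chromosome 16 than in the whole lists, and smaller on the short arm than on the long arm. The short arm went from 644 shNT to 714 shRBBP4 regions, at a ratio of 1.11 (0.995 to 1.24). The long arm went from 688 to 842, at a ratio of 1.22 (1.11 to 1.36). The 2 intervals overlapped. The lower ratio of the short arm lay mainly in its first 5 Mb, at 0.909 (0.751 to 1.10). Outside that stretch and the densest window, both described below, the short arm had a ratio of 1.24 (1.07 to 1.44), close to that of the long arm. All other chromosomes together had a ratio of 1.48. The chromosome's place among all 23 was the fourth lowest, after chromosomes 7, 13 and 8. Its share of the list went from 4.96% in shNT to 3.96% in shRBBP4. Covered length followed the number of regions, with 397 kb in shNT and 460 kb in shRBBP4.

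The split falls in an empty stretch. The last shNT region of the short arm ended at 31886906 and the first of the long arm began at 46722176, 14.8 Mb apart. In shRBBP4 these positions were 31887623 and 46654565. No region lay between them, so any split placed in that stretch gives the same arms. Of the 69 windows of 1 Mb that held a region, 65 held regions of both libraries, 4 held only shRBBP4 regions and 0 held only shNT regions.

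The regions themselves had similar sizes in both libraries. The median width was 219 bp in shNT and 216 bp in shRBBP4, and the quartiles were 148 and 356 bp in shNT and 143 and 356 bp in shRBBP4. Regions wider than 1 kb numbered 24 in shNT (1.80%, 1.16 to 2.67) and 31 in shRBBP4 (1.99%, 1.36 to 2.82). Neighbouring regions lay close together: 54.3% of shNT gaps (51.6 to 57.0) and 52.7% of shRBBP4 gaps (50.2 to 55.2) were of 1 kb or less. On the other chromosomes the share of short gaps was 53.7% in shNT and 56.5% in shRBBP4. Joined across such gaps, the regions of chromosome 16 formed 609 clusters in shNT and 737 in shRBBP4. A cluster held 2.19 regions on average in shNT and 2.11 in shRBBP4, whereas on the other chromosomes the averages were 2.16 and 2.30. Chromosome 16 clusters thus held slightly fewer regions in shRBBP4 than in shNT on average, the opposite order to that of the other chromosomes pooled. No interval was computed for these averages.

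The first 5 Mb of the short arm, its tip, had fewer regions in shRBBP4 than in shNT, 210 against 231 (ratio 0.909, 0.751 to 1.10). The number was lower in shRBBP4 in each of the 5 windows of 1 Mb. From 0 to 1 Mb there were 36 regions in shNT and 33 in shRBBP4, from 1 to 2 Mb 38 and 35, and from 2 to 3 Mb 70 and 65. From 3 to 4 Mb there were 45 and 42, and from 4 to 5 Mb 42 and 35. The interval of each window included 1, and so did that of the tip as a whole. The number of clusters at the tip was nearly equal, 114 and 116, and the ratio by clusters was 1.02 (0.779 to 1.33). What differed was how many regions a cluster held, 2.03 in shNT against 1.81 in shRBBP4.

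The densest window of the chromosome, from 30 to 31 Mb, had 91 regions in shNT and 104 in shRBBP4 (ratio 1.14, 0.854 to 1.53). Its clusters were equal in number, 41 in each library, and held 2.22 and 2.54 regions on average. These averages, also without an interval, went in the other direction than those of the tip. The rest of the short arm, outside the tip and this window, had 322 and 400 regions (ratio 1.24, 1.07 to 1.44) in 143 and 183 clusters. This ratio was close to that of the long arm, 1.22 (1.11 to 1.36). The lower ratio of the short arm as a whole thus lay in the tip and this window, and mainly in the tip. Of the next densest windows, 67 to 68 Mb had 70 and 81 regions and 89 to 90 Mb had 42 and 49. The 5 windows with most regions, the 30 to 31 Mb window included, held 318 shNT and 341 shRBBP4 regions.

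**Figure D1:**
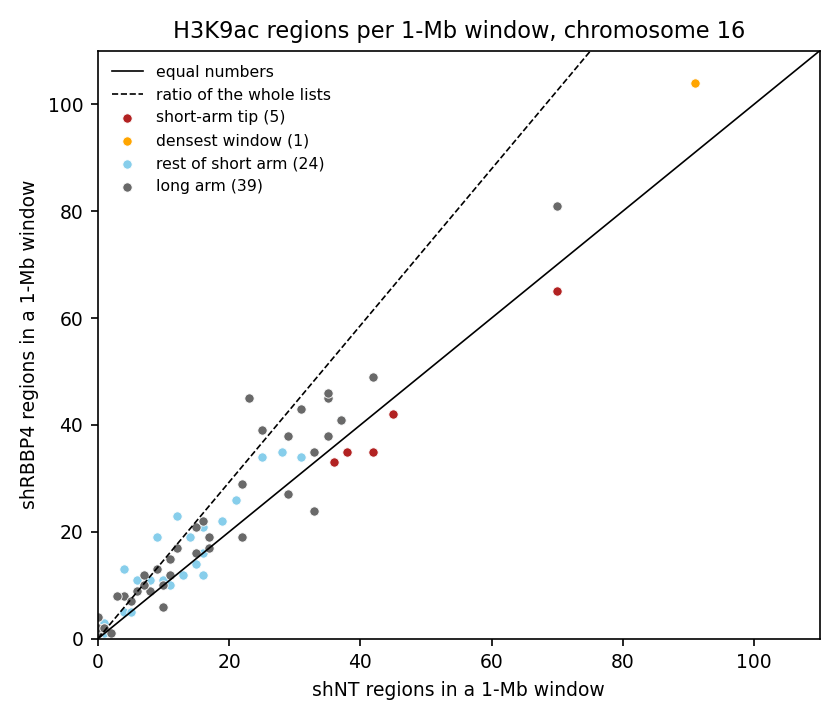
Each point is a 1-Mb window of chromosome 16 with its number of shNT regions (x axis) and shRBBP4 regions (y axis), coloured by its place. The solid line marks equal numbers and the dashed line the ratio of the whole lists, 1.46. The 5 windows of the short-arm tip lie just under the solid line, and the densest window, with 91 and 104 regions, lies just above it.

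Windows with fewer regions in shRBBP4 were found mainly on the short arm. Of the 47 windows of chromosome 16 with 20 or more regions of both lists together, 12 had fewer in shRBBP4, against 12.0% of such windows in the whole lists. They were 9 of 22 on the short arm and 3 of 25 on the long arm, where the share of 12.0% equals that of the whole lists. Counted in clusters, 25 windows held 20 or more, and 0 of them had fewer in shRBBP4. Among windows with at least 60 regions, a limit chosen after seeing the data, 5 of 20 on chromosome 16 had fewer in shRBBP4, all at the tip. The share in the whole lists was 5.21%, and on the other chromosomes 10 of 268 such windows had fewer. In the whole lists, 2 runs of 3 or more neighbouring windows with fewer shRBBP4 regions were found, both of 5 windows. The other one lay on chromosome 1 from 43 to 48 Mb, with 207 and 173 regions.

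Among the 47 windows with 20 or more regions, those at the ends of the range lay on both arms. The lowest ratios were 0.727 from 66 to 67 Mb (33 shNT and 24 shRBBP4 regions), 0.750 from 23 to 24 Mb (16 and 12) and 0.833 from 4 to 5 Mb. The highest were 2.11 from 24 to 25 Mb (9 and 19), 1.96 from 84 to 85 Mb (23 and 45) and 1.92 from 15 to 16 Mb (12 and 23). The window from 84 to 85 Mb was the only one of these 6 whose interval excluded 1 (1.16 to 3.39). It was picked for its ratio, which makes that interval too narrow. Of its 45 shRBBP4 regions, 14 overlapped an shNT region (31.1%). The 2 windows that follow it, from 85 to 87 Mb, also had more shRBBP4 regions, 39 against 25 and 43 against 31.

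Strong regions differed more than the full lists. The score is the authors' own value for each region, on an unstated scale, and was used only to rank regions. Taking the same number of strongest regions from each list makes the ratio of the whole lists equal to 1. Among the strongest 5000, 281 shNT and 174 shRBBP4 regions were on chromosome 16 (ratio 0.619, 0.510 to 0.751). The short arm had 139 and 69 (0.496, 0.366 to 0.667), and the long arm 142 and 105 (0.739, 0.569 to 0.958). Among the strongest 1000, the counts were 51 and 27 (0.529, 0.319 to 0.860). With the shRBBP4 list reduced to the 26828 regions of the shNT list, the chromosome had 1332 and 1053 (0.791, 0.728 to 0.858). The ratio was below 1 on both arms at each of these list lengths. Among the strongest 1000, the interval of the short arm included 1 (24 and 14 regions, 0.583, 0.279 to 1.17).

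Of the stretches compared, the tip had the lowest ratio among the strongest 5000. Among the strongest 5000 regions the tip had 47 in shNT and 14 in shRBBP4 (ratio 0.298, 0.151 to 0.550). Among the strongest 1000 it had 9 and 0, which puts the upper limit of the ratio at 0.507. The window from 30 to 31 Mb had 19 and 12 among the strongest 5000 (0.632, 0.280 to 1.37). In the full lists, 28 shNT regions of the tip stood above percentile 90 of their list (12.1%, 8.21 to 17.0), against 11 in shRBBP4 (5.24%, 2.64 to 9.18). From 30 to 31 Mb there were 7 in each library. Over the whole lists the share above percentile 90 was 10.1% in shNT and 9.75% in shRBBP4. The interval of the tip held the whole-list share in shNT and lay below it in shRBBP4. On chromosome 7 the share was 13.7% in shNT and 10.1% in shRBBP4, and on chromosome 8 10.8% and 6.68%. The interval of the densest window among the strongest 5000 includes 1 and overlaps that of the tip.

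**Figure D2:**
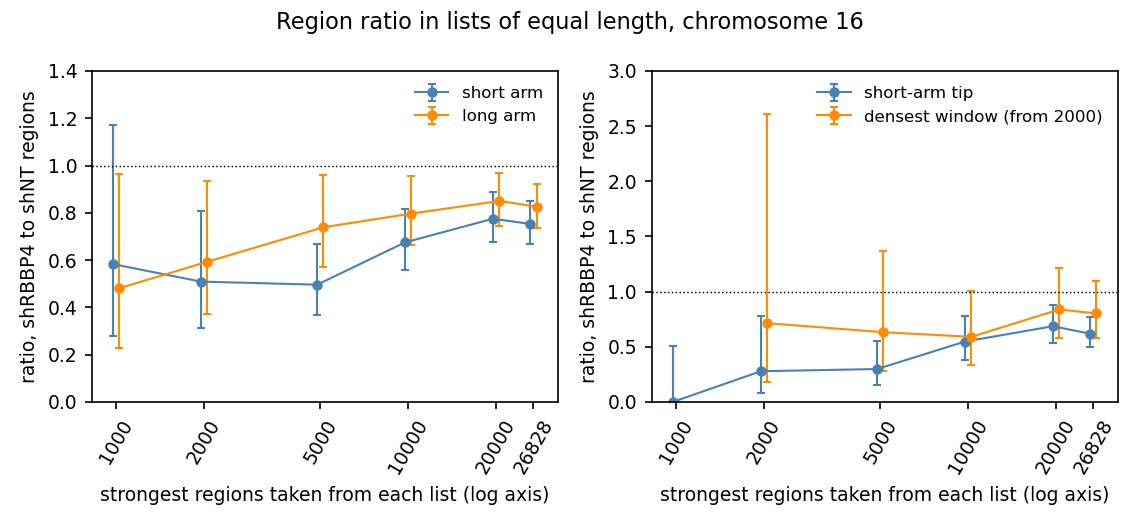
Ratio of shRBBP4 to shNT regions on chromosome 16 (y axis) among the strongest regions of each list, with the number taken from each on a log x axis; bars are 95% exact intervals for counting error. Both arms lie below the dotted line of equal numbers at each length drawn, and the short-arm tip reaches 0.298 among the strongest 5000.

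The same loci were compared next. Regions of both lists joined across gaps of up to 1 kb gave 787 joint clusters on chromosome 16, of which 508 held regions of both libraries (64.5%, 61.1 to 67.9). A further 74 held only shNT regions (9.40%, 7.46 to 11.7) and 205 only shRBBP4 regions (26.0%). Over the other chromosomes pooled these shares were 57.4%, 7.17% and 35.4% (34.7 to 36.1). Clusters of both libraries made up 66.2% on chromosome 7, 59.3% on chromosome 8 and 63.6% on chromosome 19. Those of shRBBP4 alone made up 20.1%, 25.7% and 33.2% there. At the tip, clusters of 1 library alone were equal in number, 19 for shNT and 19 for shRBBP4, beside 89 of both. The long arm had 38 for shNT alone and 124 for shRBBP4 alone. Clusters of both libraries spanned a median of 1372 bp, while those of shNT alone spanned 152 bp and those of shRBBP4 alone 194 bp. A cluster of both libraries holds at least 2 regions by its definition.

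Within the clusters of both libraries, the number of pieces was closer to even than over the other chromosomes pooled. On chromosome 16, shRBBP4 had more regions than shNT in 165 clusters (32.5%), as many in 205 (40.4%) and fewer in 138 (27.2%). On the other chromosomes the shares were 45.6%, 33.6% and 20.7%, and chromosome 7 was close to chromosome 16, with 33.7%, 38.1% and 28.2%. At the tip shRBBP4 had more regions in 19 clusters and fewer in 29, and from 30 to 31 Mb it had more in 14 and fewer in 6.

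Each cluster of both libraries was then ranked by its best region among all 10454 such clusters of the genome, once per library, so that both rankings have the same length. Chromosome 16 clusters ranked lower in shRBBP4. Their median rank was 55.0% in shNT and 44.9% in shRBBP4, where 100% is the strongest. The median difference was -8.67 points (-11.6 to -6.24), and 335 of 508 clusters (65.9%, 61.6 to 70.1) ranked lower in shRBBP4, against 50.3% in the whole lists. On the short arm the median difference was -12.3 points (-17.2 to -9.27), with 180 of 248 lower. On the long arm it was -5.60 points (-8.80 to -1.33), with 155 of 260 lower. The median over the other chromosomes pooled was 0.182 (-0.210 to 0.555). Taken one by one, chromosome 16 had the fifth lowest median of 23, after chromosomes X (-18.4), 13 (-14.6), 8 (-10.3) and 7 (-10.2).

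Of the stretches of chromosome 16 compared, the tip had the deepest loss of rank. There the median rank was 55.6% in shNT and 25.9% in shRBBP4, a median difference of -19.4 points (-26.0 to -14.3), and 71 of 89 clusters ranked lower. From 30 to 31 Mb the median difference was -9.20 points (-17.7 to -0.402), with 24 of 34 lower. In the rest of the short arm it was -10.0 points (-14.7 to -3.60), with 85 of 125 lower. The interval of the tip overlapped both of these. Among the 22 windows with at least 10 such clusters, the median difference was negative in 18. The lowest was -32.3 points from 0 to 1 Mb, where 15 of 17 clusters ranked lower. On the long arm the lowest was -19.3 points from 67 to 68 Mb, where 18 of 23 did.

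A drop of at least 25 points was found in 121 of the 508 clusters (23.8%, 20.2 to 27.8), against 15.3% in the whole lists. A rise of that size was found in 41 (8.07%, 5.85 to 10.8), against 15.5%. On the short arm 77 clusters dropped and 13 rose by as much, and on the long arm 44 dropped and 28 rose. At the tip 36 of 89 dropped and 2 rose. The long arm's share of drops, 16.9% (12.6 to 22.0), was close to that of the whole lists. Drops made up 28.2% (24.6 to 32.0) on chromosome 7 and 29.7% (25.4 to 34.3) on chromosome 8. Rises made up 8.26% and 7.08% there, so neither share was particular to chromosome 16.

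The clusters with the largest differences lay on both arms. The largest drop was on the long arm from 67596912 to 67598405, a cluster of 3 regions in each library, from rank 87.7% to 12.7%. Covered length there was 759 bp in shNT and 1149 bp in shRBBP4, so rank and covered length went in opposite directions. The next was at the tip from 277895 to 279378, from 83.2% to 9.13%, where 3 shNT regions covered 1269 bp and 1 shRBBP4 region covered 125 bp. The third, from 30537243 to 30538440, went from 75.6% to 1.90%. The largest rises were smaller. A cluster from 30456547 to 30457570 went from 35.3% to 86.2%, one from 30816578 to 30817514 from 6.87% to 57.6%, and one from 50401879 to 50402333 from 9.58% to 60.3%. The window from 30 to 31 Mb thus held one of the 3 largest drops and 2 of the 3 largest rises.

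**Figure D3:**
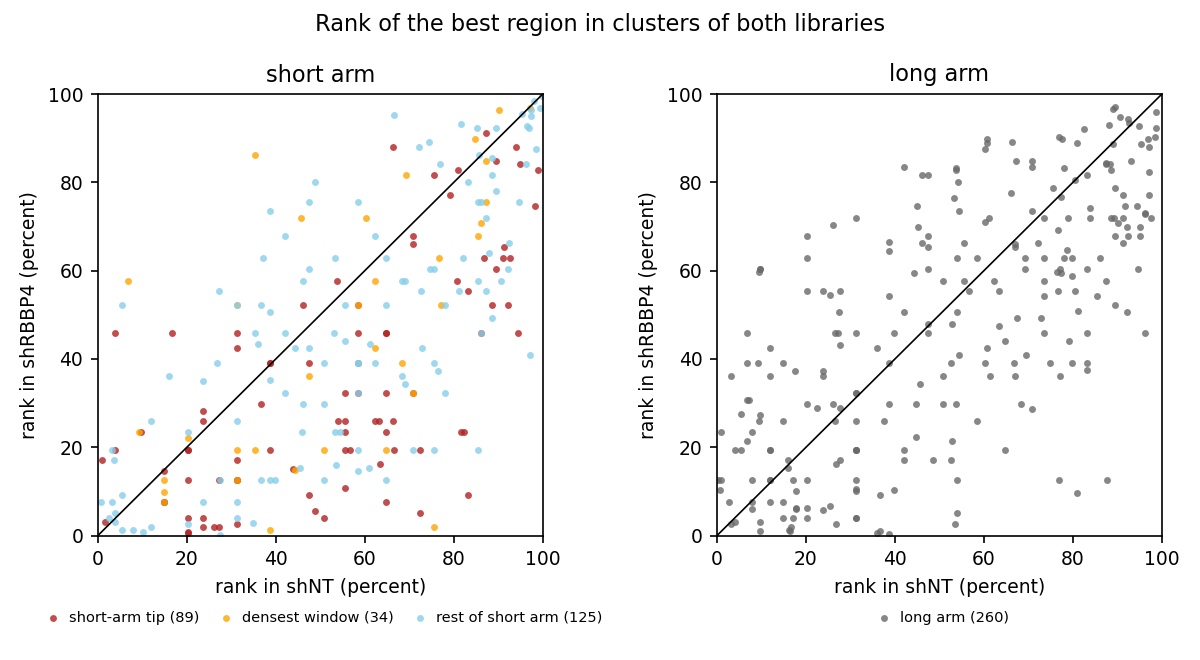
Each point is a joint cluster of chromosome 16 with regions of both libraries, with the rank of its best region among 10454 such clusters in shNT (x axis) and in shRBBP4 (y axis), 100% being the strongest. Of the 248 short-arm clusters 180 lie below the diagonal, 71 of the 89 at the tip among them, and of the 260 long-arm clusters 155 do.

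The strongest loci of the tip in shNT were chosen after their values were seen, as its clusters in the top 10% of either library. There were 9 in shNT, 1 in shRBBP4 and 0 in both. The highest in shNT ran from 4474651 to 4477493, with 8 regions in shNT and 5 in shRBBP4, and stood at rank 99.0% in shNT and 82.7% in shRBBP4. The next ran from 2801750 to 2805503, with 8 and 4 regions covering 2398 and 1632 bp, and went from 98.2% to 74.6%. The cluster from 187599 to 189213 had 2 regions in each library and went from 94.4% to 45.8%. The cluster from 1359188 to 1361310 stood at 93.9% and 88.1%. The 1 cluster in the top 10% of shRBBP4, from 3070432 to 3074250, stood at 87.3% in shNT and 91.2% in shRBBP4, with 5 regions in each. Being chosen by rank, and from clusters of both libraries, these loci describe the tip and support nothing about its direction.

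In the top 10% of these clusters genome-wide, chromosome 16 had 55 in shNT and 27 in shRBBP4, of which 17 were the same. These 17 are 30.9% of the 55 and 63.0% of the 27, so the 2 shares differ only because the counts do. Over all 10454 clusters of both libraries the counts were 1049 and 1034. There the shares in common were 54.0% for shNT and 54.7% for shRBBP4. Chromosomes 7 and 8 had the same order as chromosome 16, with 87 in shNT and 50 in shRBBP4 and with 50 and 22. The long arm had 29 and 12, with 7 in common, and the short arm 26 and 15, with 10 in common. From 30 to 31 Mb the same 2 clusters were in the top 10% of both.

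Covered length per cluster was nearly the same in both libraries on chromosome 16, while over the other chromosomes pooled it was longer in shRBBP4. The median cluster was covered over 568 bp in shNT and 670 bp in shRBBP4, and the median of the ratios was 1.05 (1.01 to 1.09). It was 1.02 (0.967 to 1.07) on the short arm, 1.09 (1.01 to 1.22) on the long arm and 0.952 (0.815 to 1.01) at the tip. The other chromosomes had a median of 1.35 (1.33 to 1.37). Clusters covered at least 1.5 times as far in shRBBP4 numbered 128 of 508 (25.2%, 21.5 to 29.2), against 41.5% in the whole lists. Those covered at least 1.5 times less numbered 70 (13.8%, 10.9 to 17.1), against 9.15%. In lists of equal length, 78 were covered farther and 99 less far, so which of these groups is larger also depends on list length. At the tip there were 18 of the first and 20 of the second kind among 89, and from 30 to 31 Mb 10 and 2 among 34.

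The gain in covered length was largest among the clusters weakest in shNT. In the lowest 20% by shNT rank, the median ratio on chromosome 16 was 1.61 in 79 clusters, and in the highest 20% it was 0.995 in 121. The classes between had medians of 1.08, 1.08 and 1.01. Elsewhere the medians from the lowest to the highest class were 1.95, 1.58, 1.38, 1.23 and 1.13. Clusters were classed here by 1 of the 2 libraries compared. Such classing can by itself raise the ratio in the lowest class, and its part was not tested.

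Chromosomes 7 and 8, which also had low ratios, had a similar rank difference, while chromosome 19, also rich in genes, had one of the opposite sign. The median rank difference was -10.2 points (-12.6 to -7.91) on chromosome 7, -10.3 (-13.0 to -7.15) on chromosome 8 and 4.15 (2.45 to 7.27) on chromosome 19. The intervals of 7 and 8 overlapped that of chromosome 16. Median cover ratios were 0.950 (0.921 to 0.996), 1.01 (0.935 to 1.08) and 1.52 (1.43 to 1.58), and the interval of chromosome 7 did not meet that of chromosome 16. Clusters covered at least 1.5 times less in shRBBP4 made up 23.9% (20.6 to 27.6) on chromosome 7 and 23.8% (19.8 to 28.2) on chromosome 8, both above the 13.8% of chromosome 16. Joint clusters of shNT alone were also more common there, 13.7% (11.5 to 16.2) and 15.0% (12.4 to 17.8), although the interval of chromosome 7 met that of chromosome 16.

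**Figure D4:**
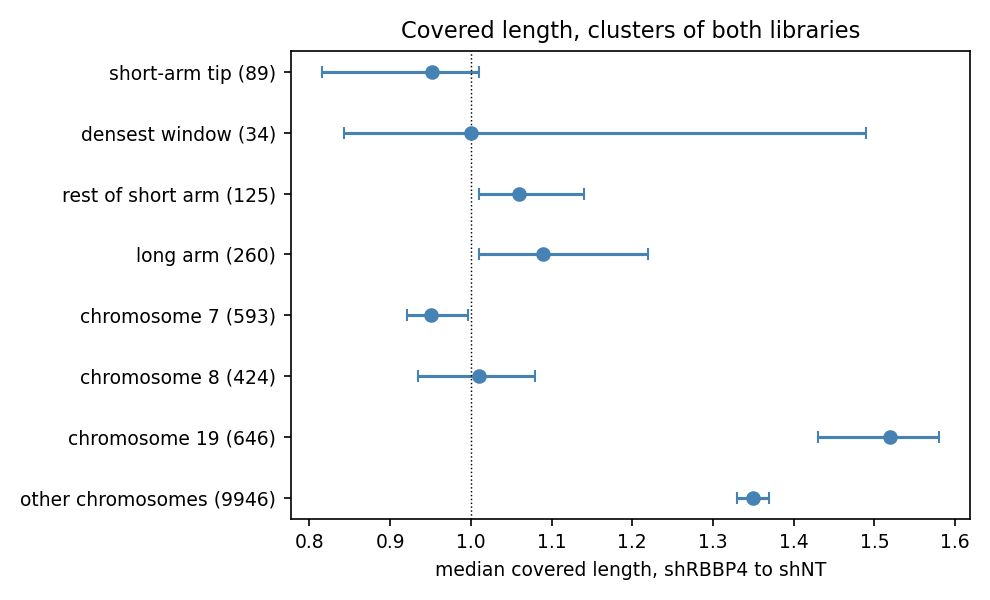
Median ratio of covered length, shRBBP4 to shNT (x axis), over joint clusters of both libraries in stretches of chromosome 16 and in other chromosomes, with the number of clusters in brackets; bars are 95% intervals of the median. The 4 stretches of chromosome 16 lie between 0.952 and 1.09, beside chromosomes 7 and 8, and the other chromosomes together at 1.35.

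By direct overlap of at least 1 bp, 387 of 1332 shNT regions of chromosome 16 met no shRBBP4 region, against 22.7% of those on the other chromosomes. The shared share was thus 70.9% (68.4 to 73.4), and nearly equal on the short arm (70.8%) and the long arm (71.1%). Of the shRBBP4 regions, 633 of 1556 met no shNT region, against 50.3% on the other chromosomes. Their shared share was 59.3% (56.8 to 61.8), higher on the short arm (63.6%, 59.9 to 67.1) than on the long arm (55.7%, 52.3 to 59.1). In the short arm outside the tip and the densest window it was 58.0% (53.0 to 62.9), an interval that overlapped that of the long arm. At the tip the order of the libraries turned, at 67.1% in shNT (60.6 to 73.1) and 71.4% in shRBBP4 (64.8 to 77.4), although these intervals overlapped. From 30 to 31 Mb it was 79.1% and 69.2%. Chromosomes 7 and 8 had shared shares of 68.0% and 65.1% in shNT and of 63.4% and 58.0% in shRBBP4. The shares of chromosome 16 were thus not particular to it, and they follow in part from the region numbers that chose the chromosome. In lists of equal length, the shared share of the chromosome was 59.8% in shNT and 70.5% in shRBBP4, so the order of the libraries depends on list length.

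Most unshared shNT regions still lay beside an shRBBP4 region. Within 1 kb, 1238 of 1332 shNT regions had a counterpart (92.9%, 91.4 to 94.3), as did 1277 of 1556 in shRBBP4 (82.1%, 80.1 to 83.9). On the other chromosomes 6.20% of shNT and 26.1% of shRBBP4 regions had none, or 93.8% and 73.9% with one, so in shNT chromosome 16 was at the level of the rest. The 293 shNT regions that had one nearby but no overlap had a median width of 154 bp and a median score percentile of 32.1, against 273 bp and 65.5 for overlapping ones. That nearby kind made up 22.0% of shNT regions on chromosome 16 and 16.5% over the other chromosomes pooled. On chromosomes 7 and 8, 68.0% and 65.1% of shNT regions overlapped an shRBBP4 region, and 89.5% and 87.1% had one within 1 kb.

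Sharing depended on the score. In shNT it was 44.5% (38.5 to 50.6) in the lowest 20% of scores and 96.9% (94.3 to 98.6) in the highest 20%. On the other chromosomes the values were 58.7% and 97.2%. In shRBBP4 it was 35.4% (30.2 to 40.9) and 91.1% (87.4 to 94.0), against 24.3% (23.4 to 25.3) and 86.6% elsewhere. In the lowest class the shared share of chromosome 16 was thus below that of the other chromosomes in shNT and above it in shRBBP4. On the short arm 41.9% (33.8 to 50.3) of the weakest shRBBP4 regions were shared, and on the long arm 29.9% (23.3 to 37.3).

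**Figure D5:**
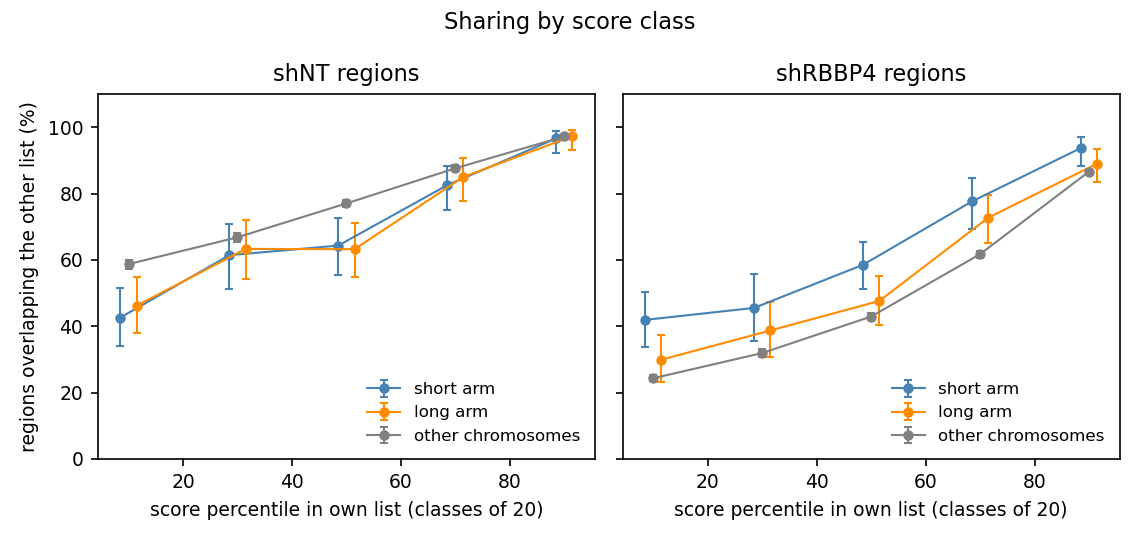
Share of regions that overlap a region of the other library (y axis) in 5 classes of score percentile (x axis), for shNT regions (left) and shRBBP4 regions (right); bars are 95% exact intervals. Shares rise with score in both libraries, and the arms of chromosome 16 lie below the other chromosomes for the weakest shNT regions. Both arms lie above them for the weakest shRBBP4 regions, where the interval of the long arm overlaps theirs.

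The highest-scoring regions of the chromosome were found in both libraries. The top region was the same in both, and stood at place 31 of the whole shNT list and place 63 of the whole shRBBP4 list. Its shNT form ran from 20911863 to 20912095, and its shRBBP4 form began at 20911873 and ended at 20912079. Next in shNT was a region of 188 bp from 29874631 to 29874818, at place 73, whose shRBBP4 counterpart from 29874619 to 29874805 stood at place 357. The third in shNT, from 4475578 to 4475732 at the tip, stood at place 108 and its counterpart at place 2233. The next 2 lay on the long arm, from 70557763 to 70559337 and from 70379847 to 70380669, at places 141 and 150, with counterparts at places 968 and 904. In each of these 5 the place in shRBBP4 was the lower one, but places in lists of different lengths show no change.

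The other leading shRBBP4 regions also had shNT counterparts. The second, from 21964398 to 21964597, stood at place 175 and its counterpart at place 231. The third, a long-arm region of 1316 bp from 71841635 to 71842950, stood at place 348 and was covered over 89.4% by 3 shNT regions, the best at place 1232. A region from 30621097 to 30621651 shared place 357 with the region at 29874619, and its shNT counterpart stood at place 305.

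The 5 strongest shRBBP4 regions with no counterpart within 1 kb were all on the long arm, which held 177 of the 279 such regions. The strongest ran from 69952041 to 69952363 (percentile 97.76, 69.1 kb from the nearest shNT region). Next came 81037919 to 81038083 (95.70, 1.24 kb) and 86619436 to 86619917 (90.44, 15.5 kb). Last came 86774910 to 86775085 (89.55) and 75182115 to 75182258 (88.58). The region at 81037919 was part of a joint cluster that also held 6 shNT regions. In shNT the highest were from 46919074 to 46919227 (percentile 80.84, 1.32 kb from the nearest shRBBP4 region) and from 66551066 to 66551328 (76.20, 4.75 kb). They were followed by 2886232 to 2886538 at the tip (70.32, 31 kb), 30407768 to 30407986 (67.82) and 73053656 to 73053928 (66.83). Above percentile 90, 3 of 120 shRBBP4 regions and 0 of 145 shNT regions of the chromosome had no counterpart within 1 kb. Elsewhere the shares were 2.86% in shRBBP4 and 0.157% in shNT, so chromosome 16 was near them in both.

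The widest regions of each library all overlapped regions of the other. The widest in both libraries was the region at 70557763, 1575 bp in shNT and 1763 bp in shRBBP4, with 99.6% of the shNT region covered. A region of 1573 bp from 8891751 to 8893323 in shNT had a counterpart of 1478 bp, and one of 1439 bp from 65154230 to 65155668 had a counterpart of 1741 bp. The shNT region of 1562 bp from 18810839 to 18812400 was covered over 88.4% by 4 shRBBP4 regions, and that of 1541 bp from 14396992 to 14398532 over 85.2% by 1. In shRBBP4 a region of 1653 bp from 86547016 to 86548668 was covered over 67.9% by 2 shNT regions. A region of 1394 bp from 69758944 to 69760337 was covered over 73.5% by 3.

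The longest joint cluster spanned 10.5 kb on the long arm, from 86539051 to 86549503, where 14 regions covered 4.75 kb in shNT and 13 covered 4.62 kb in shRBBP4. The second spanned 8.04 kb from 75278332 to 75286369, with 9 and 12 regions covering 2.46 and 3.10 kb. The third, of 7.32 kb from 14396992 to 14404308 on the short arm, had 8 and 10 regions. The cluster from 67877175 to 67883013 had 9 and 8 regions covering 2.84 and 2.08 kb. The cluster from 69756450 to 69762081 had 9 shNT regions and 4 shRBBP4 regions, yet the covered length was nearly the same, 3.04 and 3.02 kb. At these 5 loci the covered length differed by less than the 1.5-fold limit used above.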

How the data were processed

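Regions were called in each H3K9ac library separately. Both lists open with a track line containing macs2 and PE, per the file headers. Per the submitters' processing notes, bcl2fastq 2.15.0, BWA, Picard, SICER, GRCh37 and hg19 were named, with no role stated. The caller of the lists was not settled, and its threshold and input use were not given in the sources used here. The deposited score of each region has an unstated scale, with a lowest value of 2.09 in shNT and 2.00 in shRBBP4. Scores repeat: shNT has 1301 and shRBBP4 2104 distinct values, and tied regions share a mean percentile. Ties at the limit of a list of strongest regions were taken in a seeded random order. The number of reads is unknown.

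Starts are counted from 1. Regions were placed in windows by their midpoint. Shares have exact Clopper-Pearson intervals, medians order-statistic intervals and ratios the exact conditional interval, all of which treat regions as independent although they lie in clusters. Regions were named by rule: the 5 highest-scoring, the 5 highest without counterpart within 1 kb and the 5 widest of each library, the 5 longest joint clusters, the 5 fullest windows and the 3 lowest and highest ratios of windows with 20 or more regions. Clusters with the largest rank differences and the top clusters of the tip were chosen after seeing their values, as were the rank limit of 25 points, the comparison chromosomes and list lengths other than 5000 and the shNT length. The members, stretches and measures were chosen with earlier results of these data known. Overlap was tested on simulated data with 945 of 1332 regions shared, and 945 were recovered. The simulated sites lay far apart, unlike the clustered regions of the real lists, so this run checked only the counting of overlaps. Software was scipy 1.17.1, numpy 2.4.6, pandas 2.3.3 and, for plots, matplotlib 3.10.9 under Python 3.11.15.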

Additional observations from a re-analysis of the deposited data

How the results depend on the processing

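No paired analysis was possible because there was a single library for each shRNA. Of 57 recomputed values, 34 stayed the same, meaning within the 95% interval of the value reported or, for counts, within 1.5 times of it, 16 moved and 7 changed direction. In lists of equal length the ratio of shRBBP4 to shNT regions was 0.791 on chromosome 16, 0.753 on the short arm and 0.826 on the long arm, and in the strongest 5000 it was 0.619, 0.496 and 0.739. These settings set the ratio of the whole lists to 1. By clusters the ratio at the tip was 1.02, and of the 25 windows with 20 or more clusters 0 had fewer in shRBBP4. With at least 60 regions a window, 5 had fewer shRBBP4 regions (chosen after seeing the data). Sharing moved with its definition: 40.5% of shNT and 34.7% of shRBBP4 regions met each other over 50% of both, and 92.9% and 82.1% had a neighbour within 1 kb. Equal list lengths gave 59.8% and 70.5%, which turned the order of the libraries, and the higher-scoring 50% gave 86.1% and 77.7%. Gaps of up to 0.5 kb gave 127 joint clusters of shNT alone. Past 2-fold, 68 clusters were covered farther in shRBBP4 and 33 less far. In lists of equal length, a setting added after seeing the data, 78 and 99 passed 1.5-fold, so the larger group changed. Median widths in the higher-scoring 50% were 306 bp in shNT and 297 bp in shRBBP4. The rank difference stayed negative on both arms in the 3 settings tried. Since the depth is unknown, its part in any of these ratios was not tested.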
